A study of Mus musculus with 8 samples.

Results

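The genes described here are 28 genes of cholesterol synthesis, its control, and the transport, export and storage of cholesterol. They were listed by name in pathway order, and each name matched 1 of the 55335 Ensembl genes in the tables. All 28 were among the 14000 genes tested, those with at least 1 FPKM (fragments scaled to gene length and library size) in at least 2 libraries. Of the 28, 18 encode enzymes of synthesis, 4 control the transcription factor SREBP2, 3 move cholesterol inside the cell, 2 export it and 1 esterifies it. Soat1, the esterifying gene, had the lowest mean in each group but PPK ADT, where that of Abcg1 was slightly lower (1.00 against 1.02 FPKM). Soat1 was under 1 FPKM in both PP ADT libraries and in PPK ADT replicate A.

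The RNA came from sorted mouse prostate epithelium, gated as EpCAM+, CD24A+ and CD49F-low per the design text, in 4 groups of 2 libraries. All 8 libraries share the prostate genotype that the labels call PP, so no wild-type epithelium is among them. PPK libraries carry Kmt2cPC-/- in addition, a loss of Kmt2c, which encodes a histone H3 lysine 4 methyltransferase of enhancers. PP sham and PPK sham mice were 3.5 months old, and PP ADT and PPK ADT mice were 6.5 months old. ADT usually stands for androgen deprivation therapy. How it was done, which Cre line was used, and whether the 2 libraries of a group come from separate animals is not in the labels. Treatment and age changed together and cannot be told apart, so each ADT difference is called a difference of ADT with age.

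Cholesterol is built from acetyl-CoA. The mevalonate arm makes isoprenoid units, squalene is assembled and closed into lanosterol, and a last series of steps turns lanosterol into cholesterol. When sterols in the endoplasmic reticulum are low, SCAP escorts SREBP2 to the Golgi, where it is cut and released to switch on genes of synthesis and uptake. When sterols are plentiful, INSIG proteins hold SCAP back, and oxysterols activate the liver X receptors, which switch on the exporters ABCA1 and ABCG1. Prostate epithelium is rich in cholesterol, and androgens are known to raise lipid synthesis genes there through the SREBP pathway.

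Summed FPKM ranged from 284015 to 333977 per library, and no read counts were given, so the depth is unknown. The targeted gene Kmt2c (GRCm38 annotation: ENSMUSG00000038056, chromosome 5, 25271798 to 25498783) had FPKM values of 13.3 and 13.9 in PP sham, 8.67 and 8.15 in PPK sham, 10.3 and 9.33 in PP ADT and 6.60 and 6.36 in PPK ADT. PPK libraries were below PP libraries at both ages, without overlap (sham: -0.63 ± 0.066, limma adjusted p = 0.000795). The ADT pairs gave -0.53 ± 0.066, limma adjusted p = 0.00054. The deleted exons are not resolved by a gene-level value. Pearson correlations of log2 values across genes were 0.986 to 0.989 within groups and 0.805 to 0.958 between groups. Epcam, which defines the epithelial label, held 309.8 to 565 FPKM. The luminal keratin gene Krt8 stood at 1856 and 1883 FPKM in PP ADT against 294 and 286 in PPK ADT. All 6 epithelial and luminal markers tested lower in PPK ADT than PP ADT, where 27.1% of all tested genes did. Their log2 differences ran from -2.68 for Krt8 to -0.57 for Epcam. The 9 basal and squamous markers summed to 6959.5 and 7026 FPKM in PPK ADT and to between 361 and 604.5 in the other 6 libraries, where Sprr1a made up most of the sum. Lymphocyte markers (7 genes) and adipocyte markers (4 genes) summed to at most 0.687 and 1.25 FPKM in any library, and the adipocyte genes Adipoq, Plin1 and Lep were listed at 0 in all. Fibroblast markers (7 genes) summed to 5.60 to 6 FPKM in PP sham, 18.2 and 17.7 in PPK sham, 4.66 and 4.59 in PP ADT and 29.5 and 30.5 in PPK ADT. The 5 endothelial markers summed to at most 3.50 FPKM.

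Summed over the 18 synthesis genes, the level was 233 and 224 FPKM in PP sham, 149 and 158 in PPK sham, 161 and 155 in PP ADT and 257 and 274 in PPK ADT. The PPK sham and PP ADT libraries were thus low and overlapped each other, while PP sham and PPK ADT libraries were high. Summed export genes (Abca1 and Abcg1) ran otherwise, at 26.9 and 26.5 FPKM in PP sham, 27 and 27.7 in PPK sham, 43.5 and 45.3 in PP ADT and 20.4 and 20.5 in PPK ADT. The high sum in PP ADT came from Abca1, and the low sum in PPK ADT from Abcg1.

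**Figure D1:**
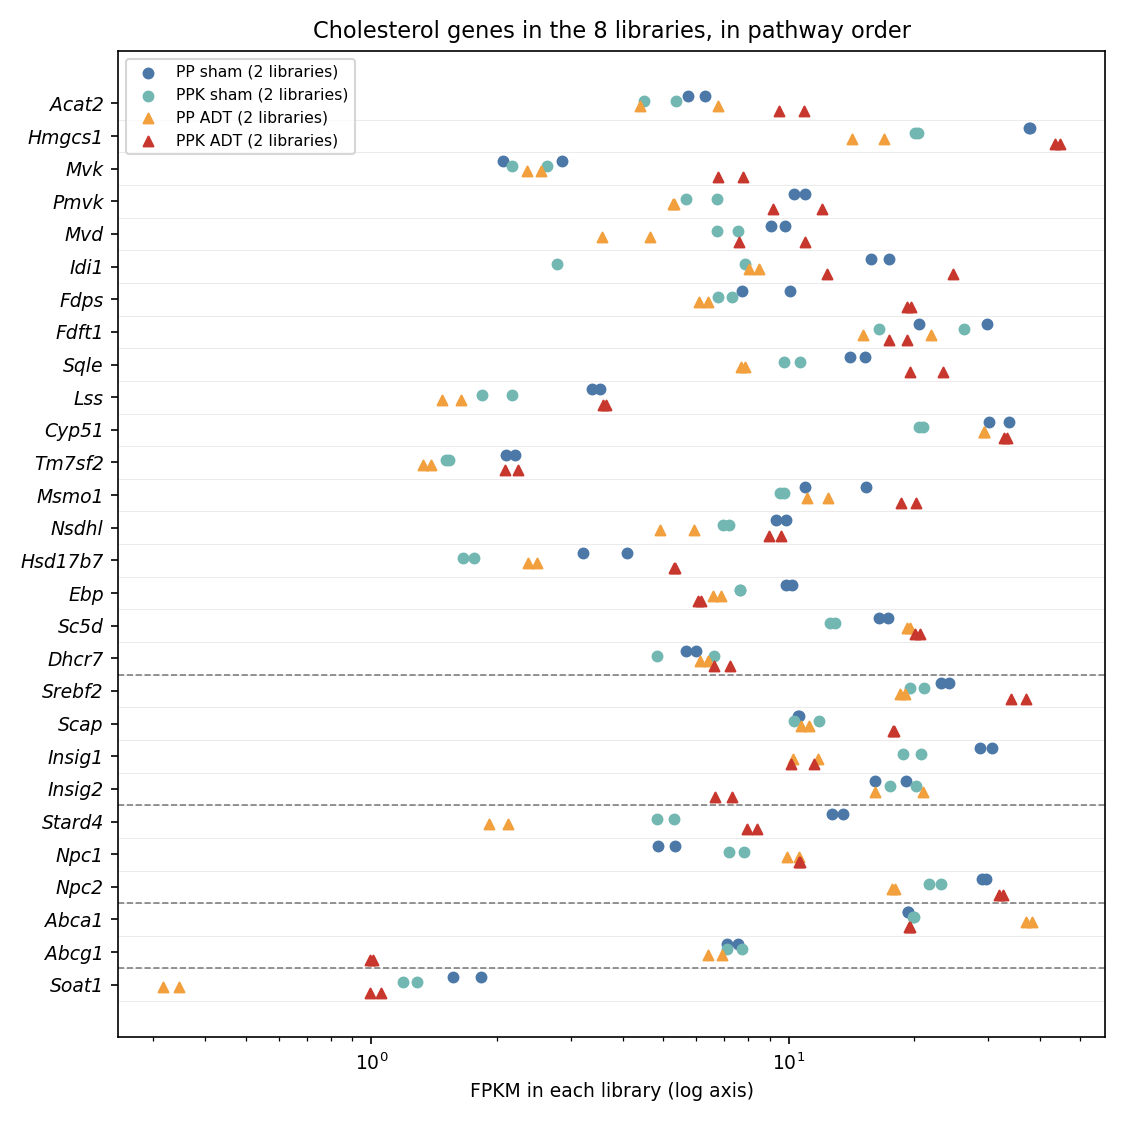
FPKM (log axis) of each of the 28 genes in each library, in pathway order from Acat2 to Soat1, where circles are sham and triangles ADT libraries and dashed lines separate synthesis, SREBP2 control, transport, export and esterification. Most synthesis genes lie lowest in PPK sham or PP ADT libraries, and Abcg1 is low in PPK ADT (0.993 and 1.01).

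A gene was called when its limma adjusted p was under 0.05. In sham mice, 15 of the 28 genes were lower and 1 higher in PPK than in PP, where 14.9% of all tested genes were called lower and 13.7% higher. In ADT mice the balance turned, as 18 were higher and 3 lower in PPK than in PP, against 32.5% and 27.1% of all tested genes. With ADT and age in PP, 15 fell and 3 rose, where 25.1% of all tested genes fell and 19% rose. In PPK, 19 rose and 4 fell with ADT and age, where 32% of all tested genes rose and 30.7% fell. The genotype difference in ADT mice was called above that in sham mice for 22 of the 28 genes and below it for 4. The shares of all tested genes were 30% and 22.8%. These 5 comparisons share groups, so they do not support each other. The median log2 difference over the 28 genes between PPK and PP was -0.35 in sham and 0.68 in ADT mice, and that of all tested genes was -0.02 and 0.05. For ADT with age the median was -0.43 in PP and 0.61 in PPK, beside -0.07 and 8.57e-05 over all tested genes.

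Promoter windows in RefSeq (GRCm38.p6, 250 bases before to 50 after a start) were found for 22 of the 28 genes. Those without an entry were Fdps, Fdft1, Sqle, Stard4, Npc1 and Abcg1. Windows were searched on both strands for the sterol regulatory element TCACNCCAC, an SREBP site, and for CCAAT, the box of the factor NF-Y, which is known to act with SREBP. A gene counts where any of its windows holds the motif, and the matches printed here do not overlap. The element matched in Hmgcs1 alone of the 22 genes, and in 1.36% of all tested genes with a window. CCAAT matched in 14 of 15 synthesis genes with a window, and 9 of them held at least 2. Of all tested genes with a window, 42.6% held CCAAT and 16.3% at least 2. Over single windows of all genes, 1.24% held the element and 37.4% CCAAT.

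The sequences below let the synthesis genes Hmgcs1 and Mvk be set beside the control gene Insig1 and the exporter Abca1. All but Hmgcs1 were chosen after their values were seen. Insig1 RNA was lower in PPK sham and fell with ADT and age in PP, as Hmgcs1 did, but stayed low in PPK ADT. Abca1 RNA rose with ADT and age in PP. Each sequence is the 250 bases before the start, 5′ to 3′ on the gene's strand, with motif matches in capitals (ATTGG is CCAAT on the other strand). They lie at chr13:119690101-119690350 (plus strand) for Hmgcs1, chr5:114444019-114444268 (plus) for Mvk, chr5:28071162-28071411 (plus) for Insig1 and chr4:53159896-53160145 (minus) for Abca1.
Hmgcs1: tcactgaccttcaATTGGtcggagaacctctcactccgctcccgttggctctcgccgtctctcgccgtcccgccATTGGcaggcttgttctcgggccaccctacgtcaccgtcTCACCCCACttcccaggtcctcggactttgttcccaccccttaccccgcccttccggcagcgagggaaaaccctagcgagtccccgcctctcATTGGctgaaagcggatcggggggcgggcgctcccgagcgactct
Mvk: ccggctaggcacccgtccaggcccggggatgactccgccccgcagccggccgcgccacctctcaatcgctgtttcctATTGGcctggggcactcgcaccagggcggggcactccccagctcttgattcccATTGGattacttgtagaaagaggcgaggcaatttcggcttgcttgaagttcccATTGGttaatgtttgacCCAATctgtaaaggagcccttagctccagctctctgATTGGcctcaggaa
Insig1: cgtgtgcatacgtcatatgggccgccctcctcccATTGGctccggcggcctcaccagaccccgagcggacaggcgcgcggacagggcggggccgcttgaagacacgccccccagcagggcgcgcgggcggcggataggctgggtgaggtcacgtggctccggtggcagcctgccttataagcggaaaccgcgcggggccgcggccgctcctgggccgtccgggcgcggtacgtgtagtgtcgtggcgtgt
Abca1: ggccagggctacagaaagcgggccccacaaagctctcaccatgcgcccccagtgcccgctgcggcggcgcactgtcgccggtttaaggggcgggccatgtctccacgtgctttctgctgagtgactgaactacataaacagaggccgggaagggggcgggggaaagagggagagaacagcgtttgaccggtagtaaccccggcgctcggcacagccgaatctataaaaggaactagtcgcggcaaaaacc

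The Hmgcs1 stretch holds the element 137 bases before the start, as TCACCCCAC, and CCAAT boxes 237, 176 and 45 bases before it. Mvk holds 5 CCAAT boxes, from 173 to 14 bases before the start, though its RNA did not pass in sham mice. Insig1 holds 1, 216 bases before the start, and the Abca1 window holds neither motif. A match is a description of letters, and an absent match says nothing of the factor.

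Values after a gene below are log2 differences of FPKM + 1, with their SE, which understate changes of low genes. Each p-value rests on the spread between the libraries of a group, which may be technical. That spread was estimated over all 4 groups together and adjusted by that of other genes at a like level. A p-value thus also depends on groups outside its comparison. In bulk RNA, fewer cells of a type and less RNA per cell cannot be told apart.

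The mevalonate arm had the largest median difference of genotype effects (ADT minus sham) among the synthesis steps, 1.57 against 1.42 for the squalene steps and 0.76 after lanosterol. Of its 7 genes, 3 were lower in PPK than in PP in sham mice, and 6 were higher in ADT mice (all tested genes: 14.9% and 32.5%). Hmgcs1 (ENSMUSG00000093930, chromosome 13, 119690379 to 119708260) encodes the HMG-CoA synthase of the arm. It had FPKM values of 37.9 and 37.7 in PP sham, 20.4 and 20.1 in PPK sham, 17 and 14.2 in PP ADT and 44.7 and 43.5 in PPK ADT. PPK ADT stood highest and PP ADT lowest, with no overlap between any of the groups. Hmgcs1 was lower in PPK sham (-0.87 ± 0.076, limma adjusted p = 0.000364) and higher in PPK ADT (1.45 ± 0.076, limma adjusted p = 8.33e-06). It fell with ADT and age in PP (-1.23 ± 0.076, limma adjusted p = 3.51e-05) and rose in PPK (1.08 ± 0.076, limma adjusted p = 2.98e-05).

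Mvk, the mevalonate kinase gene, and holder of the 5 CCAAT boxes printed above, differed in 1 group only, with FPKM values of 2.87 and 2.07 in PP sham, 2.17 and 2.64 in PPK sham, 2.36 and 2.56 in PP ADT and 7.78 and 6.77 in PPK ADT. Its first 3 groups overlapped, and both PPK ADT libraries stood above them (1.26 ± 0.14, limma adjusted p = 0.000275 against PP ADT). In sham mice the Mvk difference was -0.02 ± 0.14, and with ADT and age in PP it was 0.00 ± 0.14. Pmvk, the next kinase, had FPKM values of 10.9 and 10.3 in PP sham, 5.66 and 6.72 in PPK sham, 5.31 and 5.27 in PP ADT and 9.17 and 12 in PPK ADT. It was lower in PPK sham (-0.70 ± 0.13, limma adjusted p = 0.00802), fell with ADT and age in PP (-0.88 ± 0.13, limma adjusted p = 0.00181) and stood higher in PPK ADT than PP ADT (0.87 ± 0.13, limma adjusted p = 0.00115). Mvd, which makes isopentenyl pyrophosphate, had FPKM values of 9.05 and 9.78 in PP sham, 7.56 and 6.75 in PPK sham, 3.57 and 4.65 in PP ADT and 10.9 and 7.61 in PPK ADT. It fell with ADT and age in PP (-1.03 ± 0.17, limma adjusted p = 0.00337) and stood higher in PPK ADT than PP ADT (1.00 ± 0.17, limma adjusted p = 0.00248), while the sham difference missed the threshold (-0.35 ± 0.17, limma adjusted p = 0.181).

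Idi1, the isomerase gene of the 5-carbon isoprenoid units, had the widest gaps within pairs. It had FPKM values of 15.7 and 17.4 in PP sham, 7.85 and 2.78 in PPK sham, 8.02 and 8.49 in PP ADT and 12.4 and 24.8 in PPK ADT. The PPK sham and PPK ADT pairs were wide, and replicate B was the low one in the first and the high one in the second. Idi1 was called lower in PPK sham (-1.60 ± 0.44, limma adjusted p = 0.0366) and was not called in ADT mice (1.01 ± 0.44, limma adjusted p = 0.0905). The processed pseudogene Gm13502 matches Idi1 transcripts at 100% over 684 bases and had FPKM values of 12.7 and 13.3 in PP sham, 6.59 and 6.96 in PPK sham, 5.95 and 7.49 in PP ADT and 18.6 and 17.8 in PPK ADT. How reads were shared out between them is not known. Summed, Idi1 and Gm13502 gave FPKM values of 28.5 and 30.7 in PP sham, 14.4 and 9.74 in PPK sham, 14 and 16 in PP ADT and 31 and 42.6 in PPK ADT, with PPK sham and PP ADT low in all 4 libraries. Fdps, which encodes farnesyl pyrophosphate synthase, had FPKM values of 7.74 and 10.1 in PP sham, 7.31 and 6.77 in PPK sham, 6.09 and 6.41 in PP ADT and 19.2 and 19.7 in PPK ADT. Both PPK ADT libraries stood above all others (1.50 ± 0.11, limma adjusted p = 4.4e-05 against PP ADT, 1.35 ± 0.11, limma adjusted p = 6.82e-05 against PPK sham), and in sham mice Fdps was not called (-0.29 ± 0.11, limma adjusted p = 0.1). Gm3571, which matches Fdps at 98.9% over 1062 bases, held 1.39 to 4.66 FPKM. Acat2, a cytosolic acetoacetyl-CoA thiolase gene, had FPKM values of 6.29 and 5.74 in PP sham, 4.50 and 5.36 in PPK sham, 6.77 and 4.40 in PP ADT and 10.9 and 9.50 in PPK ADT. It stood higher in PPK ADT than PP ADT (0.78 ± 0.18, limma adjusted p = 0.00817) and PPK sham (0.92 ± 0.18, limma adjusted p = 0.0039), and the PP ADT pair spanned both sham pairs. Acat2 shares 445 bases with Tcp1 on the opposite strand and is 97.7% identical to Acat3 over 1477 bases, and how such reads were assigned is not known.

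The call of Idi1 in sham mice ended without PPK sham replicate B (-0.99, limma adjusted p = 0.122), without either PP sham or either PP ADT library (0.0615 to 0.136), without the filter (0.0989) and with the replicate letter as a block (0.0608). Its rise with ADT and age in PPK (1.68 ± 0.44, limma adjusted p = 0.0145) ended without PPK sham replicate B (1.07, limma adjusted p = 0.0527) or PPK ADT replicate B (1.21, limma adjusted p = 0.0772). In ADT mice Idi1 was called without PPK ADT replicate A (1.48, limma adjusted p = 0.0444) or either PPK sham library (0.0319 and 0.032). The fall of Fdps with ADT and age in PP (-0.44 ± 0.11, limma adjusted p = 0.0187) ended without PP ADT replicate A (adjusted p = 0.0846 from limma) or B (0.0562). Without PP sham replicate A, Fdps was called lower in PPK sham (-0.47, limma adjusted p = 0.012). Mvd, with 0.32 ± 0.17, limma adjusted p = 0.153 in PPK for ADT and age, was called higher without PPK ADT replicate B (0.55, limma adjusted p = 0.0246).

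At the squalene steps, Sqle and Lss moved as Hmgcs1 did, and Fdft1 did not pass in any comparison. Sqle (ENSMUSG00000022351, chromosome 15, 59315077 to 59331192), which encodes squalene epoxidase, a rate-controlling enzyme, had FPKM values of 15.2 and 14.1 in PP sham, 9.73 and 10.6 in PPK sham, 7.87 and 7.69 in PP ADT and 19.5 and 23.5 in PPK ADT. The 4 groups did not overlap, with PPK ADT highest and PP ADT lowest (1.35 ± 0.093, limma adjusted p = 3.06e-05 between them). In PP the fall with ADT and age was -0.83 ± 0.093, limma adjusted p = 0.000571, and the sham genotype difference was -0.49 ± 0.093, limma adjusted p = 0.00977. That sham call ended without PP sham replicate A (adjusted p = 0.0596 from limma) or PPK sham replicate A (0.0559). Lss, which closes the ring to lanosterol, was low, with FPKM values of 3.52 and 3.38 in PP sham, 2.17 and 1.84 in PPK sham, 1.64 and 1.47 in PP ADT and 3.58 and 3.65 in PPK ADT. It was lower in PPK sham (-0.57 ± 0.086, limma adjusted p = 0.00381) and higher in PPK ADT than PP ADT (0.85 ± 0.086, limma adjusted p = 0.000199). Fdft1, the squalene synthase gene, had FPKM values of 29.9 and 20.6 in PP sham, 16.5 and 26.4 in PPK sham, 21.9 and 15.1 in PP ADT and 17.4 and 19.2 in PPK ADT. Its pairs were wide and all 4 groups overlapped at least 1 other, with a difference of 0.00 ± 0.28, limma adjusted p = 0.993 between PPK ADT and PP ADT. Fdft1 shares 774 bases with Ctsb on the opposite strand, and Ctsb reached 154 FPKM. On the same strand, Gm6781 matches Fdft1 at 97.4% over 1249 bases and held 0.552 to 1.46 FPKM.

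After lanosterol, 6 of 8 genes were lower in PPK than in PP in sham mice and 5 were higher in ADT mice (all tested genes: 14.9% and 32.5%). Cyp51, the lanosterol demethylase gene, had FPKM values of 33.6 and 30.2 in PP sham, 20.5 and 21 in PPK sham, 29.4 and 29.3 in PP ADT and 32.8 and 33.4 in PPK ADT. PPK sham was lowest (-0.60 ± 0.054, limma adjusted p = 0.000417 against PP sham). PP ADT lay just below both PP sham and PPK ADT, and the difference in ADT mice was small (0.17 ± 0.054, limma adjusted p = 0.0326). That small call ended with median-of-ratios scaling (0.11, limma adjusted p = 0.128), with quantile normalization (adjusted p = 0.07 from limma), and without any 1 of the 4 ADT libraries (adjusted p = 0.0848 to 0.122). Msmo1, a sterol methyl oxidase gene, had FPKM values of 10.9 and 15.3 in PP sham, 9.76 and 9.55 in PPK sham, 11.1 and 12.4 in PP ADT and 18.6 and 20.2 in PPK ADT. It was higher in PPK ADT than PP ADT (0.68 ± 0.14, limma adjusted p = 0.0064), and the PP pairs overlapped. Without PP sham replicate A, the Msmo1 difference in sham mice (-0.39 ± 0.14, limma adjusted p = 0.094) became -0.62 (limma adjusted p = 0.00872), and that of ADT with age in PP (-0.13 ± 0.14, limma adjusted p = 0.49) became -0.36 (limma adjusted p = 0.0297). Cyp51 in PP (-0.12 ± 0.054, limma adjusted p = 0.13 for ADT with age) was called lower without PP sham replicate B (-0.19, limma adjusted p = 0.0261). Hsd17b7, which encodes a 3-ketosteroid reductase of the same steps, had FPKM values of 4.10 and 3.22 in PP sham, 1.65 and 1.76 in PPK sham, 2.37 and 2.50 in PP ADT and 5.30 and 5.35 in PPK ADT. No group overlapped another, and PPK sham was lowest (-0.78 ± 0.10, limma adjusted p = 0.00206) and PPK ADT highest (0.88 ± 0.10, limma adjusted p = 0.000384). The fall of Hsd17b7 with ADT and age in PP (-0.43 ± 0.10, limma adjusted p = 0.0146) ended without PP sham replicate A (-0.30, limma adjusted p = 0.0601) or PP ADT replicate A (adjusted p = 0.0688).

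Nsdhl, a sterol dehydrogenase gene on the X chromosome, had FPKM values of 9.32 and 9.84 in PP sham, 6.98 and 7.18 in PPK sham, 4.92 and 5.93 in PP ADT and 9.56 and 8.98 in PPK ADT. PP ADT was lowest, and PP sham and PPK ADT overlapped. Nsdhl fell with ADT and age in PP (-0.72 ± 0.086, limma adjusted p = 0.000744) and was higher in PPK ADT than PP ADT (0.68 ± 0.086, limma adjusted p = 0.000566). Tm7sf2, a sterol reductase gene, was low at 1.33 to 2.25 FPKM and was also lowest in PP ADT (0.43 ± 0.077, limma adjusted p = 0.00306 for PPK against PP in ADT mice), and it overlaps Vps51 by 532 bases. The sham differences of Nsdhl (-0.39 ± 0.086, limma adjusted p = 0.0168) and Tm7sf2 (-0.32 ± 0.077, limma adjusted p = 0.0219) ended when any 1 of the 4 sham libraries was left out (adjusted p = 0.0541 to 0.0892 and 0.0699 to 0.109 from limma). In PPK both rose with ADT and age, Nsdhl by 0.35 ± 0.086, limma adjusted p = 0.0119 and Tm7sf2 by 0.33 ± 0.077, limma adjusted p = 0.00904. The rise of Nsdhl ended without PPK sham replicate A or PPK ADT replicate A (adjusted p = 0.0544 and 0.0642 from limma), and that of Tm7sf2 without PPK ADT replicate A (0.0571).

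The last 3 enzymes followed other courses. Ebp, the sterol isomerase gene, had FPKM values of 9.87 and 10.2 in PP sham, 7.67 and 7.63 in PPK sham, 6.58 and 6.90 in PP ADT and 6.17 and 6.07 in PPK ADT. It was highest in PP sham and lower in each other group, and the ADT groups differed by -0.12 ± 0.053, limma adjusted p = 0.0928. That ADT difference was called with median-of-ratios scaling (-0.17, limma adjusted p = 0.0273) and quantile normalization (-0.16, limma adjusted p = 0.0398). Sc5d, the lathosterol desaturase gene, had FPKM values of 17.3 and 16.5 in PP sham, 12.6 and 12.9 in PPK sham, 19.2 and 19.6 in PP ADT and 20.7 and 20.0 in PPK ADT. PPK sham was lowest (-0.38 ± 0.044, limma adjusted p = 0.00116), and Sc5d rose with ADT and age in PPK (0.64 ± 0.044, limma adjusted p = 2.74e-05). In PP the rise of Sc5d was small (0.19 ± 0.044, limma adjusted p = 0.0136) and ended without PP sham replicate B or PP ADT replicate B (adjusted p = 0.0779 and 0.0658 from limma). Dhcr7, which makes cholesterol from 7-dehydrocholesterol, held 4.84 to 7.25 FPKM and passed in no comparison, with differences from -0.04 to 0.25. Without PPK sham replicate B, Dhcr7 was called higher with ADT and age in PPK (0.44, limma adjusted p = 0.00773) and for the difference of genotype effects (0.35, limma adjusted p = 0.0472). Dhcr7 and Msmo1 transcripts each hold a stretch of about 200 bases that many other genes share.

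**Figure D2:**
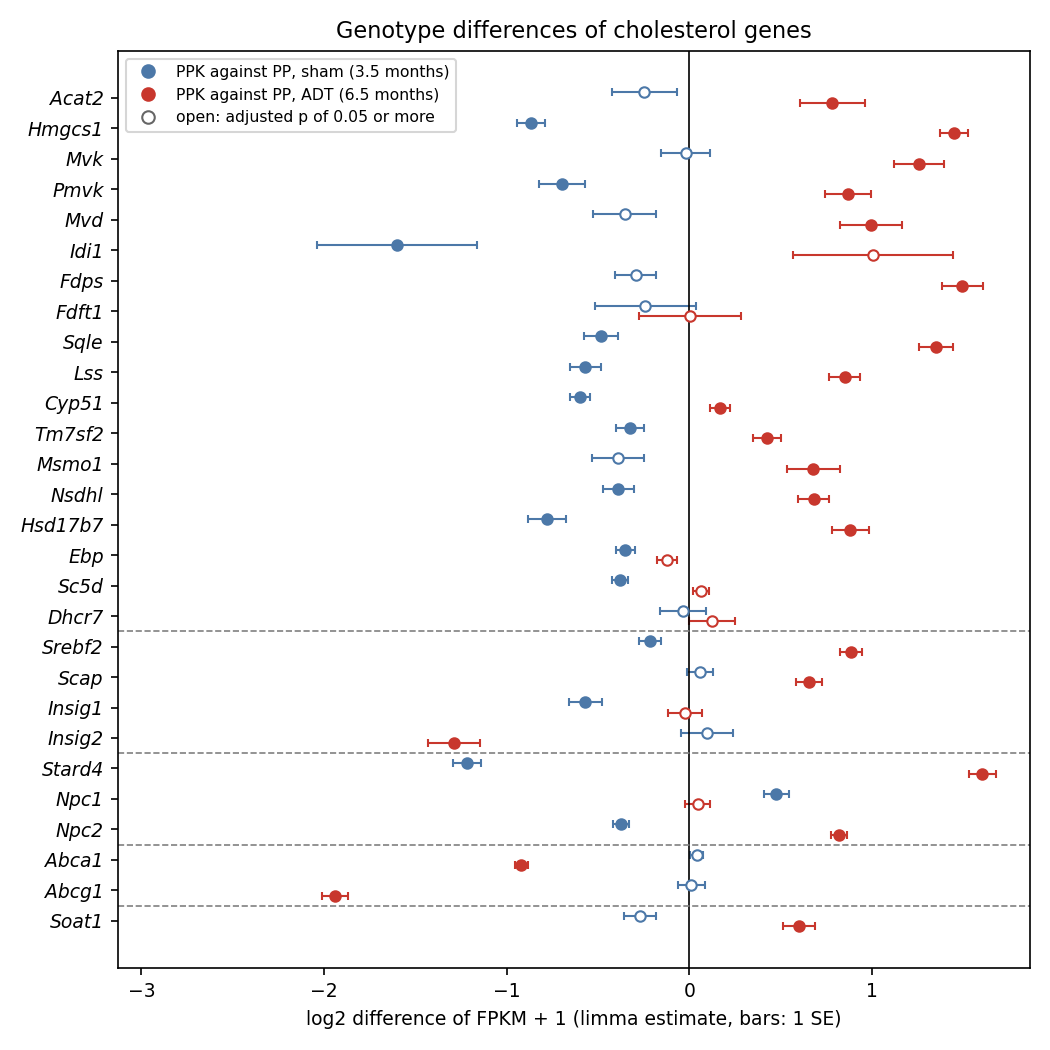
Log2 difference of FPKM + 1 between PPK and PP for each gene, in sham (blue) and ADT (red) libraries, with bars of 1 SE and open points where the limma adjusted p was 0.05 or more. All 11 called sham differences of synthesis genes lie left of 0 and all 13 called ADT differences right of it, while Abca1, Abcg1 and Insig2 lie left of 0 in ADT mice. Of all tested genes, 14.9% were called lower in sham and 32.5% higher in ADT mice.

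Of the SREBP2 control genes, Srebf2 and Scap were high in PPK ADT, and Insig1 and Insig2 were not. Srebf2 (ENSMUSG00000022463, chromosome 15, 82147181 to 82205379), which encodes SREBP2 itself, had FPKM values of 24.2 and 23.2 in PP sham, 19.5 and 21.1 in PPK sham, 19.1 and 18.5 in PP ADT and 37 and 34.2 in PPK ADT. Both PPK ADT libraries stood above all others (0.89 ± 0.058, limma adjusted p = 2.39e-05 against PP ADT, 0.78 ± 0.058, limma adjusted p = 4.05e-05 against PPK sham). The lower value in PPK sham was small (-0.21 ± 0.058, limma adjusted p = 0.0353) and its call ended without PPK sham replicate A (adjusted p = 0.151 from limma), without PP sham replicate A (0.157) or B (0.0781), and without either PP ADT library (0.0553 and 0.0552). It also ended with the replicate letter as a block (adjusted p = 0.0541 from limma), without the filter (0.071), without the trend (0.0642) and with only the sham groups (0.0694). Scap, the escort gene, had FPKM values of 10.6 and 10.6 in PP sham, 10.3 and 11.9 in PPK sham, 10.7 and 11.2 in PP ADT and 17.9 and 17.8 in PPK ADT. Its first 3 groups overlapped, and it was higher in PPK ADT (0.66 ± 0.069, limma adjusted p = 0.000231 against PP ADT).

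Insig1 (ENSMUSG00000045294, chromosome 5, 28071363 to 28078662), an SREBP2 target that retains SCAP, had FPKM values of 30.7 and 28.7 in PP sham, 20.7 and 18.8 in PPK sham, 11.8 and 10.2 in PP ADT and 11.5 and 10.1 in PPK ADT. It was lower in PPK sham than PP sham (-0.57 ± 0.092, limma adjusted p = 0.00498), and both ADT groups were low and overlapped (-0.02 ± 0.092, limma adjusted p = 0.854 between them). With ADT and age Insig1 fell in PP (-1.36 ± 0.092, limma adjusted p = 5.49e-05). It also fell in PPK mice (-0.81 ± 0.092, limma adjusted p = 0.000314). Insig1 thus stayed low in PPK ADT, where Hmgcs1 and Sqle stood highest. Insig2, the other retention gene, had FPKM values of 19.1 and 16.1 in PP sham, 17.5 and 20.2 in PPK sham, 16.1 and 21 in PP ADT and 6.65 and 7.30 in PPK ADT. Its other 3 groups overlapped, and PPK ADT was lower than PP ADT (-1.29 ± 0.14, limma adjusted p = 0.000294) and PPK sham (-1.31 ± 0.14, limma adjusted p = 0.000247).

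Among the transport genes, Stard4 had the largest genotype differences of the 28 genes in ADT mice on the higher side. Stard4, which encodes a soluble sterol carrier and is a known SREBP2 target, had FPKM values of 12.7 and 13.5 in PP sham, 5.31 and 4.84 in PPK sham, 1.91 and 2.13 in PP ADT and 7.94 and 8.42 in PPK ADT. No groups overlapped, and PP sham stood 6.49 times over PP ADT as a ratio of mean FPKM. Stard4 was lower in PPK sham (-1.22 ± 0.074, limma adjusted p = 7.92e-05), fell with ADT and age in PP (-2.23 ± 0.074, limma adjusted p = 2.5e-06) and was higher in PPK ADT than PP ADT (1.60 ± 0.074, limma adjusted p = 4.82e-06). Unlike Hmgcs1, its PPK ADT libraries stayed below both PP sham libraries.

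Npc1 and Npc2, which pass cholesterol out of the lysosome together, did not move alike. Npc1, the membrane protein gene, had FPKM values of 4.87 and 5.35 in PP sham, 7.20 and 7.80 in PPK sham, 9.90 and 10.6 in PP ADT and 10.6 and 10.7 in PPK ADT. It was higher in PPK sham than in PP sham (0.48 ± 0.069, limma adjusted p = 0.00306), rose with ADT and age in PP (0.88 ± 0.069, limma adjusted p = 0.000106) and PPK (0.45 ± 0.069, limma adjusted p = 0.00134), and differed by 0.05 ± 0.069, limma adjusted p = 0.599 between both ADT groups. Npc2, the soluble carrier gene, had FPKM values of 29.7 and 29 in PP sham, 23.2 and 21.7 in PPK sham, 17.6 and 18 in PP ADT and 31.8 and 32.6 in PPK ADT. It was lower in PPK sham (-0.37 ± 0.045, limma adjusted p = 0.00139), falling in PP with ADT and age (-0.69 ± 0.045, limma adjusted p = 4.49e-05) and higher in PPK ADT than PP ADT (0.82 ± 0.045, limma adjusted p = 1e-05). Npc1 shares 323 bases with Rmc1 on the opposite strand.

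The exporters Abca1 and Abcg1 did not differ between genotypes in sham mice by the test, and were both lower in PPK ADT than PP ADT by different routes. Abca1 (ENSMUSG00000015243, chromosome 4, 53030787 to 53159895), which loads cholesterol onto lipid-poor apolipoprotein, had FPKM values of 19.3 and 19.4 in PP sham, 19.9 and 20.0 in PPK sham, 37.1 and 38.4 in PP ADT and 19.4 and 19.5 in PPK ADT. Only PP ADT stood apart, as Abca1 rose with ADT and age in PP (0.93 ± 0.036, limma adjusted p = 4.58e-06), and the difference in PPK was -0.03 ± 0.036, limma adjusted p = 0.475. Abcg1 (ENSMUSG00000024030, chromosome 17, 31057675 to 31117988), which loads cholesterol onto mature lipoprotein particles, had FPKM values of 7.57 and 7.13 in PP sham, 7.12 and 7.71 in PPK sham, 6.41 and 6.94 in PP ADT and 0.993 and 1.01 in PPK ADT. Here only PPK ADT stood apart, as Abcg1 fell with ADT and age in PPK (-2.07 ± 0.073, limma adjusted p = 1.15e-06) and the difference in PP was -0.12 ± 0.073, limma adjusted p = 0.224. The sham differences were 0.04 ± 0.036, limma adjusted p = 0.45 for Abca1 and 0.01 ± 0.073, limma adjusted p = 0.936 for Abcg1.

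Soat1, which stores cholesterol as esters, had FPKM values of 1.83 and 1.57 in PP sham, 1.19 and 1.29 in PPK sham, 0.317 and 0.346 in PP ADT and 0.990 and 1.05 in PPK ADT. It fell with ADT and age in PP (-1.02 ± 0.088, limma adjusted p = 0.000173), was higher in PPK ADT than PP ADT (0.60 ± 0.088, limma adjusted p = 0.00116) and was not called in sham mice (-0.27 ± 0.088, limma adjusted p = 0.0656), where the fit without a trend called it (0.0288). Macrophages also express Abca1, Abcg1, Npc2 and Soat1. The 13 macrophage and monocyte markers summed to 67.1 and 66.2 FPKM in PP sham, 137 and 139.6 in PPK sham, 142 and 150.4 in PP ADT and 56.3 and 54.7 in PPK ADT, mostly Cd14 and Cd68. Of the 10 tested markers, 9 were higher and 1 lower in PPK sham than in PP sham, and 1 was higher and 8 lower in PPK ADT than PP ADT. In PP, where Abca1 rose and Npc2 and Soat1 fell with ADT and age, 9 markers rose and 1 fell. In PPK, where Abcg1 fell and Npc2 rose with ADT and age, 1 marker rose and 4 fell. All-gene shares for these comparisons were 13.7% and 14.9%, 32.5% and 27.1%, 19% and 25.1%, and 32% and 30.7%, higher and lower in turn. No marker was at 0 in all libraries, and the defining genes Ptprc, Adgre1 and Csf1r stayed at or under 0.188, 0.585 and 0.605 FPKM. Aif1 was at 0 in PPK ADT replicate B. The part of these cells in the export gene differences was not tested.

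**Figure D3:**
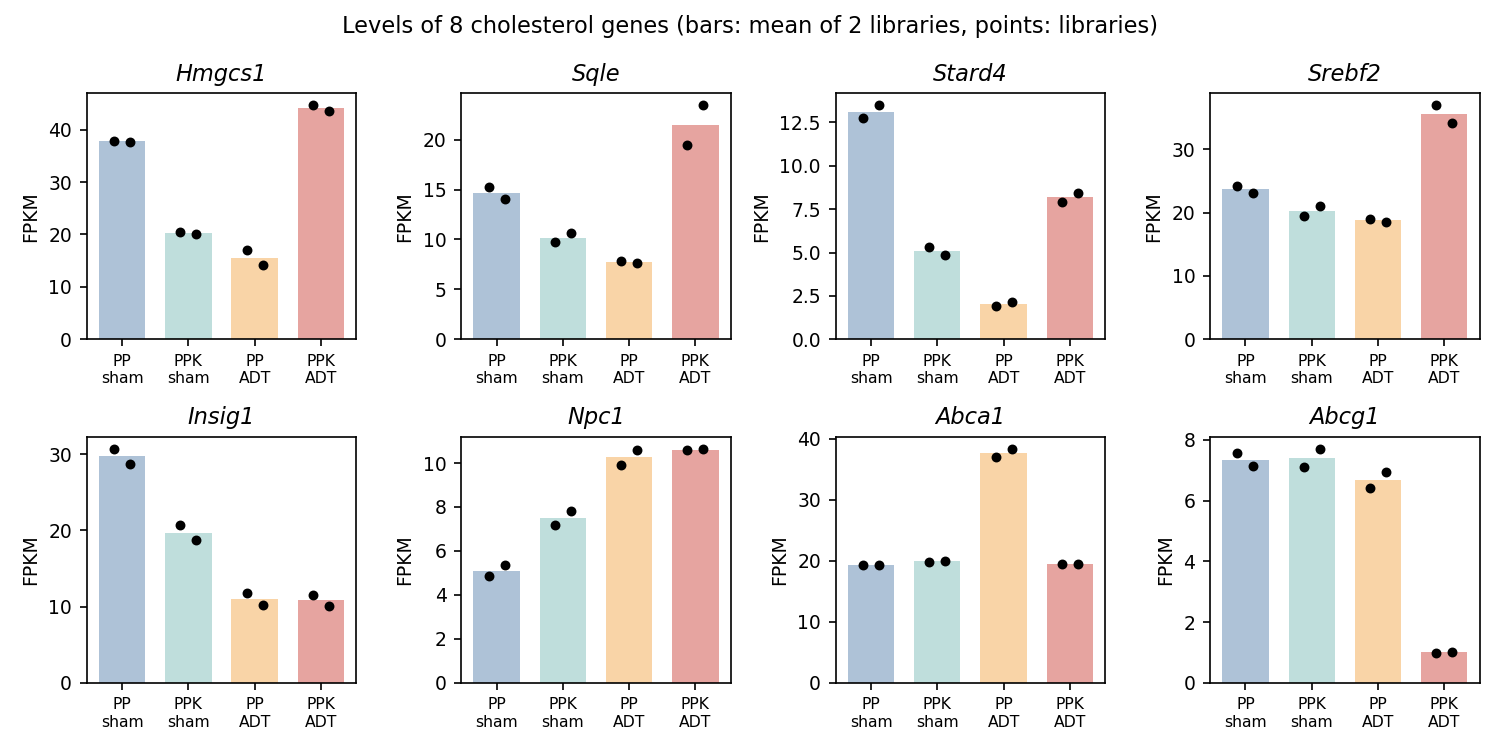
FPKM of 8 genes by group, where bars are the mean of 2 libraries and points the libraries. Hmgcs1, Sqle and Stard4 are low in PPK sham and lowest in PP ADT, Abca1 is high in PP ADT alone (37.1 and 38.4) and Abcg1 is low in PPK ADT alone (0.993 and 1.01).

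Beside the PPK ADT differences above, 9 of 9 basal and squamous markers were above both PP ADT and PPK sham in PPK ADT, where 32.5% and 32% of all tested genes were higher. Beside the fall of synthesis genes in PP with ADT and age, 7 of the 9 rose and 1 fell (all tested genes: 19% and 25.1%). Krt5, a basal keratin gene, stood at 3242 and 3243 FPKM in PPK ADT and at 30.0 and 27.1 in PP sham, 22 and 21 in PPK sham and 94.3 and 96.8 in PP ADT. None of the 9 was at 0 in all libraries, and Krtdap was at 0 in some. Fibroblast markers were also higher in PPK ADT than PP ADT (5 of 5 tested). The part of these markers in the cholesterol gene differences was not tested.

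The course with ADT and age differed between genotypes for most of the 28 genes. In PP, 10 of 18 synthesis genes fell and 1 rose (all tested genes: 25.1% and 19%), and in PPK 14 rose and 1 fell (32% and 30.7%). The test of that difference, which equals the genotype difference in ADT mice minus that in sham mice, was called for 26 of the 28 genes. Of all tested genes, 30% were called above 0 and 22.8% below it. The difference was called above 0 for 16 of 18 synthesis genes, with a median of 1.17 over the 18 and 0.09 over all tested genes. The largest were Stard4 (2.82 ± 0.11, limma adjusted p = 2.95e-06), Idi1 (2.61 ± 0.62, limma adjusted p = 0.0122) and Hmgcs1 (2.32 ± 0.11, limma adjusted p = 7.32e-06). It was below 0 for Abcg1 (-1.95 ± 0.10, limma adjusted p = 1.31e-05), Insig2 (-1.38 ± 0.20, limma adjusted p = 0.00144), Abca1 (-0.96 ± 0.051, limma adjusted p = 1.34e-05) and Npc1 (-0.43 ± 0.098, limma adjusted p = 0.01), and it was not called for Fdft1 (0.24 ± 0.39, limma adjusted p = 0.632) and Dhcr7 (0.16 ± 0.18, limma adjusted p = 0.484). The smallest called value, of Ebp (0.23 ± 0.075, limma adjusted p = 0.0407), ended when any 1 library was left out (adjusted p = 0.0537 to 0.117 from limma), with the replicate letter as a block (0.0612), and with median-of-ratios (0.113) or quantile (0.0838) scaling.

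**Figure D4:**
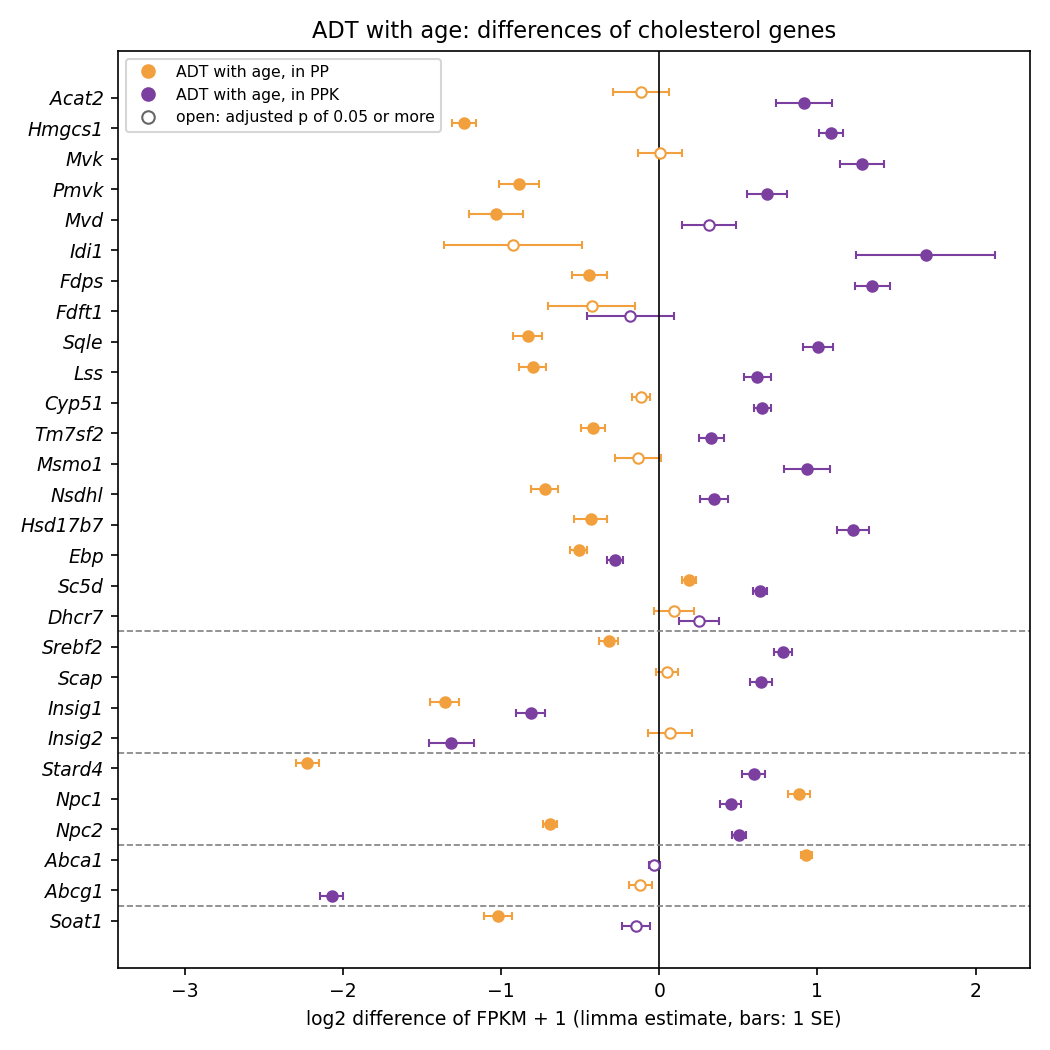
Log2 difference of FPKM + 1 between ADT at 6.5 months and sham at 3.5 months for each gene, in PP (orange) and PPK (purple) libraries, with bars of 1 SE and open points where the limma adjusted p was 0.05 or more. Hmgcs1, Pmvk, Fdps, Sqle, Lss, Tm7sf2, Nsdhl, Hsd17b7, Srebf2, Stard4 and Npc2 are called left of 0 in PP and right of 0 in PPK. Of all tested genes, 25.1% were called lower in PP and 32% higher in PPK, and the share with both calls was not counted. The calls of Fdps and Hsd17b7 in PP and of Tm7sf2 and Nsdhl in PPK ended in some alternative runs.

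By group order, 13 of the 18 synthesis genes (72.2%) had their highest mean in PPK ADT, as 37.5% of all tested genes did. The other 5 (Pmvk, Mvd, Fdft1, Nsdhl and Ebp, 27.8%) had it in PP sham, near the 26.3% of all tested genes. None was highest in PPK sham or PP ADT, where 18.7% and 17.5% of all tested genes were highest. The lowest mean lay in PPK sham for 8, in PP ADT for 8 and in PPK ADT for 2, against 17.4%, 27.2% and 35% of all tested genes.

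Counts for other genes of the pathway stand beside 32.5% higher and 27.1% lower of all tested genes in PPK ADT against PP ADT, and nothing is read from lists this small. Of 9 genes that process SREBP or sense sterols, 1 was higher and 3 lower in PPK than in PP in ADT mice, as 1 and 3 were in sham mice (all tested genes there: 13.7% and 14.9%). Erlin1, an endoplasmic reticulum protein that binds SREBP and INSIG complexes, was lowest in PP ADT, with FPKM values of 8.34 and 8.67 in PP sham, 4.77 and 5.02 in PPK sham, 3.23 and 2.59 in PP ADT and 5.67 and 5.23 in PPK ADT (1.42 ± 0.13, limma adjusted p = 0.000181 for the difference of genotype effects). Nfe2l1 fell with ADT and age in PPK (-0.82 ± 0.19, limma adjusted p = 0.00798). Of 9 tested genes of lipoprotein uptake and the lysosome, 5 were higher and 2 lower in PPK ADT than PP ADT. Lrp1, a large endocytic receptor, stood at 39.5 and 38.5 FPKM in PPK ADT and 10.4 and 9.84 in PP ADT (1.85 ± 0.058, limma adjusted p = 8.19e-07), and fibroblasts also express it. Tmem97, which binds NPC1, fell in PP (-0.90 ± 0.13, limma adjusted p = 0.00158) and was higher in PPK ADT than PP ADT (0.78 ± 0.13, limma adjusted p = 0.00182). Stard3, a late endosomal sterol carrier, was lower in PPK ADT (-0.63 ± 0.078, limma adjusted p = 0.000523).

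Of 7 tested sterol transfer genes, 2 (28.6%) were higher and 3 (42.9%) lower in PPK ADT than PP ADT. Gramd1b, which carries cholesterol from the plasma membrane, fell to 0.351 and 0.970 FPKM in PPK ADT from 7 and 5.47 in PPK sham (-2.14 ± 0.21, limma adjusted p = 0.000158). Osbpl2 fell likewise in PPK (-1.34 ± 0.056, limma adjusted p = 2.63e-06), and Stard5 rose (1.45 ± 0.064, limma adjusted p = 3.43e-06). These genes moved the same way in PP with ADT and age, by less. Gramd1b (-0.70 ± 0.21, limma adjusted p = 0.0361) and Osbpl2 (-0.50 ± 0.056, limma adjusted p = 0.000581) fell there, and Stard5 rose (0.71 ± 0.064, limma adjusted p = 0.000206). Of 8 tested genes of the liver X receptor and oxysterols, 2 were higher and 5 lower in PPK ADT than PP ADT. Arl4c, a known target of that receptor, had the course of Abca1 in PP, with FPKM values of 21.5 and 21 in PP sham, 14.5 and 15.2 in PPK sham, 46.1 and 45.8 in PP ADT and 10.9 and 11.1 in PPK ADT, and was lower in PPK ADT than PP ADT (-1.97 ± 0.041, limma adjusted p = 1.61e-07). Mylip, another target, whose product degrades lipoprotein receptors, was lower in PPK ADT too (-0.85 ± 0.064, limma adjusted p = 4.45e-05) but fell with ADT and age in PP (-0.51 ± 0.064, limma adjusted p = 0.000953). Cyp27a1, the mitochondrial sterol 27-hydroxylase gene, had FPKM values of 7.82 and 7.63 in PP sham, 7.21 and 7.84 in PPK sham, 0.671 and 0.436 in PP ADT and 11.6 and 10.8 in PPK ADT, and PP ADT alone was low (-2.49 ± 0.092, limma adjusted p = 3.57e-06). Srebf1, named after its values were seen, held 24.1 to 26 FPKM and passed in no comparison. In the isoprenoid branch, which uses farnesyl and geranylgeranyl units, 5 of 14 genes (35.7%) were higher and 3 (21.4%) lower in PPK ADT than PP ADT, near the shares of all tested genes. Fnta, a prenyltransferase subunit gene, rose with ADT and age in PPK (0.69 ± 0.10, limma adjusted p = 0.0012). Dhdds, a gene of dolichol synthesis, fell with ADT and age in PP (-0.62 ± 0.12, limma adjusted p = 0.007). Rabggtb, another prenyltransferase subunit gene, was higher in PPK than PP in ADT mice (0.61 ± 0.15, limma adjusted p = 0.0108).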

How the data were processed

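The authors deposited 1 table of FPKM values per library, for 8 libraries. Per the labels' protocols, Trizol RNA was made into strand-specific TruSeq libraries. Per the submitters' processing notes, FastQC 0.11.2 and build mm10 were used. Aligner, quantifier and annotation: not given in the sources used here. Since the smallest value above 0 was 1e-06, single reads could not be recovered and depth is unknown.

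Symbols and positions came from GENCODE M21 (GRCm38), which matched 55154 of 55335 identifiers. Log2(FPKM + 1) of the 14000 genes with at least 1 FPKM in at least 2 libraries was fitted with limma 3.58.1 (R 4.3.3) with a mean for each of 4 groups and a trend of variance on level. P-values were two-sided and adjusted over all tested genes by Benjamini-Hochberg, with a threshold of 0.05. The fit was tested on simulated data. Near-identical transcripts were those with at least 95% identity over at least 200 bases. Plots used matplotlib 3.10.9 in Python 3.11.15.

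Groups came from the titles. Members, lists and tests were chosen with earlier results of these data known. Named were all members, Kmt2c, and up to 3 called genes per pathway list with the largest change and, in 1 group, 5 FPKM or more on average. Alternatives were a pseudocount of 0.1, no filter, only genes averaging 5 FPKM or more, other scalings, the replicate letter as block, a fit of the compared groups alone, a fit without trend, and each library left out. Some genes of the pathway are not reported here.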

Additional observations from a re-analysis of the deposited data

Results flagged for a closer look

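The genotype difference (PPK minus PP) was not the same in ADT and sham mice for 26 of the 28 genes, by the test of that difference itself (limma, adjusted p under the threshold). The values are the log2 genotype difference in ADT mice minus that in sham mice. In the mevalonate arm they were 1.03 for Acat2, 2.32 for Hmgcs1, 1.28 for Mvk, 1.57 for Pmvk, 1.35 for Mvd, 2.61 for Idi1 and 1.79 for Fdps. At the squalene steps they were 1.84 for Sqle and 1.42 for Lss. After lanosterol they were 0.77 for Cyp51, 0.75 for Tm7sf2, 1.07 for Msmo1, 1.07 for Nsdhl, 1.66 for Hsd17b7, 0.23 for Ebp and 0.45 for Sc5d.

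Among the SREBP2 control genes they were 1.10 for Srebf2, 0.60 for Scap, 0.55 for Insig1 and -1.38 for Insig2. For transport they were 2.82 for Stard4, -0.43 for Npc1 and 1.19 for Npc2. Export and storage genes gave -0.96 for Abca1, -1.95 for Abcg1 and 0.87 for Soat1. Of all tested genes, 30% passed this test above 0 and 22.8% below it.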

How the results depend on the processing

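Over the 5 comparisons and 28 genes, 104 of 140 differences were called, and no called difference changed sign under any alternative run. Of all tested genes, 13.7% to 32.5% were called per comparison and direction, and the comparisons share groups. A pseudocount of 0.1 changed no call, and a mean of at least 5 FPKM changed none of the 115 differences it could test. Without a filter 4 calls were lost, those of Idi1, Tm7sf2 and Srebf2 in sham mice and Cyp51 in ADT mice. Median-of-ratios scaling lost 2 and gained 1, as did quantile normalization and the fit without a trend, and the fit of only the groups compared lost 6 and gained 1 (lost: Idi1, Tm7sf2 and Srebf2 between sham groups, Fdps and Hsd17b7 with ADT and age in PP, Idi1 in PPK). Leaving out 1 library lost 3 to 7 calls and gained 0 to 3. Every count of called genes per comparison and direction stayed within 1.5 times its reported value. The replicate letters gave correlations of deviations of -0.00791 to 0.0566 between groups, so libraries of the same letter showed no strong common shift. Whether such libraries share anything beyond the letter is not in the labels. With the replicate block 3 calls were lost and none gained, leaving 13 of 15 genes lower in PPK sham and 21 of 22 differences of genotype effects above 0. Uncalled values near 0 changed sign in 2 cases under median-of-ratios scaling and in up to 5 when a library was left out. FPKM without counts gives no depth, so the precision of low genes such as Soat1 rests on the shared spread of 2 libraries per group.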
